A study of Rattus norvegicus with 69 samples.

Results

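The liver transcriptome of rats given liraglutide+PYY3-36 was compared with that of the rats labelled Lean. The comparison takes the 6 liraglutide+PYY3-36 libraries of batch A and the 6 Lean libraries, all of them in batch A, which are 12 of the 69 libraries of the series. Both groups are Wistar rats, and poly(A) RNA of the liver was sequenced. The treated rats were adult males made obese on a high-fat diet, then given liraglutide under the skin and PYY3-36 from an osmotic minipump, with free choice of a high-fat and a low-fat diet, and their livers were taken after an overnight fast. Liraglutide activates the receptor of the gut hormone GLP-1, and PYY3-36 is a gut peptide that acts on the Y2 receptor. For the Lean group the labels give the strain, tissue and batch. Its age, sex, diet, fasting state and handling are not given in the sources used here, so the former obesity, the diets, the drugs, the pump and any difference in age or feeding cannot be told apart in this comparison. Rats of the liraglutide+PYY3-36 and saline arms had a prolonged feeding period, in each arm as many as it has libraries in batch A. The labels do not say whether those rats gave the batch A libraries, so a longer feeding period of the treated and saline rats cannot be told apart from the treatment either. The 3 saline libraries of batch A, from obese rats with saline in place of both drugs, and the 7 sham libraries of batch A, from obese rats with sham surgery, are given beside the main values to show where the treated livers lay relative to other obese rats of the same batch.

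The liver makes fatty acids from sugar-derived acetyl-CoA when food is plentiful. The transcription factors SREBP1c and ChREBP, with the nuclear receptor LXR, are known to drive the genes of this pathway under insulin and carbohydrate, while fasting, fat-rich food and low carbohydrate intake turn it down and turn on PPARα targets of fatty acid oxidation. The same organ makes cholesterol and bile acids and clears drugs through cytochrome P450 and glucuronidation enzymes, many of them controlled by the nuclear receptors CAR and PXR.

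Total counts ranged from 19117020 to 27559144 in the liraglutide+PYY3-36 libraries and from 18037046 to 25062189 in Lean. The 11 hepatocyte markers summed to between 123300 and 172300 CPM (counts scaled to the effective library size) in the liraglutide+PYY3-36 libraries and to between 160100 and 224100 CPM in Lean. Lep and Retn of fat tissue and Prss1, Pnlip, Ins1, Ins2 and Gcg of the pancreas and gut had 0 counts in all 12 libraries. Other markers of these tissues did have counts. The 5 fat tissue markers tested summed to 1487 to 3497 CPM in the liraglutide+PYY3-36 libraries and 916.6 to 2890 CPM in Lean. For the 2 pancreas and gut markers tested the sums were 10.44 to 22.54 CPM and 17.19 to 35.39 CPM. The tissue that gave these reads was not tested. The receptor genes of both drugs were at the limit of these libraries. Glp1r, the GLP-1 receptor gene, had 0 to 1 counts in the liraglutide+PYY3-36 libraries and 0 in Lean, and Npy2r, the Y2 receptor gene, had 0 in all 12. A count of 0 allows up to 3 counts, or 0.109 to 0.166 CPM at these depths.

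Most called genes were lower in the liraglutide+PYY3-36 livers than in Lean. The lists of fatty acid synthesis, sugar use and cholesterol synthesis held lower genes and 0 higher ones, and bile acid and glucuronidation genes held higher genes and 0 lower ones. Of 16552 genes tested, 738 differed between liraglutide+PYY3-36 and Lean at an adjusted p under 0.05 (edgeR's quasi-likelihood test, Benjamini-Hochberg), which is 4.46%. Of these, 292 were higher (1.76%) and 446 were lower (2.69%) after liraglutide+PYY3-36. When a 2-fold difference (1 on the log2 scale) was also required, 112 genes were higher (0.677%) and 176 lower (1.06%). All 6 liraglutide+PYY3-36 libraries lay above all 6 Lean libraries for 157 genes (0.949%) and below them for 270 (1.63%). Of all 16552 differences, called or not, 8039 were negative and 8513 positive, the background of the direction counts in the lists below. Members of a list were measured in the same 12 libraries, so a direction count does not hold separate observations. The count of 738 fell to 480 without liraglutide+PYY3-36 replicate 2, to 411 when the 12 libraries alone were fitted, and to 188 when all 69 libraries were fitted with a batch term, where the 5 liraglutide+PYY3-36 libraries of the other batch enter too. Against the batch A saline libraries 0 genes passed and against sham 16, as described further on. The list medians against saline were 0.223 on the log2 scale for fatty acid synthesis, -0.078 for sugar use and 0.0223 for cholesterol synthesis. They were -0.00244 for bile acid genes and 0.456 for glucuronidation genes.

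Fatty acid synthesis had the largest share of called genes among the 40 lists examined. Of its 16 genes, 13 were lower after liraglutide+PYY3-36 and 0 higher, against 2.69% lower among all genes tested, with a median log2 fold change of -1.75 against 0.0094 over all genes. The 13 genes cover the whole route, from citrate and acetate to long and desaturated fatty acids. For 11 of the 13 the groups did not overlap, the exceptions being Elovl5 and Me1. Among all genes tested, 1.63% had all treated libraries below all Lean ones. The 13 were already called, so their lack of overlap is no separate result, here and in the lists below.

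Acly, ATP citrate lyase, which makes cytosolic acetyl-CoA from citrate, had 53.9, 63.1 and 78.7 CPM as the lowest, median and highest liraglutide+PYY3-36 library and 134, 204 and 768 CPM in Lean. The highest treated library was below the lowest Lean library, and the log2 fold change was -2.17 ± 0.42 (SE, edgeR, adjusted p = 0.00121). Acss2, which makes acetyl-CoA from acetate, had 17.8, 24.6 and 28.7 CPM against 40.7, 47.8 and 79.0 CPM, a log2 fold change of -1.14 ± 0.19 (adjusted p = 0.00022). Acaca and Acacb encode the acetyl-CoA carboxylases, which make malonyl-CoA. Acacb, the form whose malonyl-CoA restrains fatty acid entry into mitochondria, had 24.8, 38.6 and 48.9 CPM against 84.3, 142 and 242 CPM (log2 fold change -1.93 ± 0.31, adjusted p = 0.000104), and Acaca differed by -1.21 ± 0.27 on the log2 scale (adjusted p = 0.00429). Fasn, fatty acid synthase (chromosome 10, Rnor_6.0, 109987735 to 110005901), had 26.3, 36.4 and 54.1 CPM against 150.4, 221 and 601 CPM. All 6 treated livers were thus below the lowest Lean liver for Fasn, with a log2 fold change of -2.85 ± 0.60 (adjusted p = 0.00268).

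Promoter sequences of 5 of the 13 lower genes are shown. The 5 were picked among genes that hold a common short motif, so its presence in all 5 is no result. In Acly, Acacb and Acss2 it lies at nearly the same distance from the start, in Acss2 on the other strand. Any part of the motif in the lower levels was not tested. Each is the 130 bases before the RefSeq start on rat build GRCr8, 5′ to 3′ on the gene's strand, with CCAAT, the box bound by the factor NF-Y, or its reverse complement ATTGG in capitals. The positions are chr10:85963632-85963761 (Acly, minus strand), chr12:48138215-48138344 (Acacb, minus), chr3:164464573-164464702 (Acss2, plus), chr1:216252562-216252691 (Fads1, plus) and chr7:117173398-117173527 (Pnpla3, plus).
Acly: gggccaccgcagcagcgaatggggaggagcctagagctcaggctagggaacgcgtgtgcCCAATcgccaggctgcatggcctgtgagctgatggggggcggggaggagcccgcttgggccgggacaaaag
Acacb: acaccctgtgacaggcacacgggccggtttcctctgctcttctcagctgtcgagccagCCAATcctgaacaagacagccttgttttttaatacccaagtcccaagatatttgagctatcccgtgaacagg
Acss2: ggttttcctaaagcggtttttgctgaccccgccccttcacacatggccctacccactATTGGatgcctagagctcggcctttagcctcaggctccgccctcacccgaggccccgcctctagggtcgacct
Fads1: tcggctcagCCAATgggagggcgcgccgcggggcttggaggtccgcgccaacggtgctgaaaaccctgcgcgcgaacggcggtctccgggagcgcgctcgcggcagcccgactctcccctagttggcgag
Pnpla3: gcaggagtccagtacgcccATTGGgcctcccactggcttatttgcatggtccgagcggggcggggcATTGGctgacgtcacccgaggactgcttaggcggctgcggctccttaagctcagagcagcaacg

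Of the 13 lower genes, 10 had an entry among the RefSeq promoters. In the 250 bases before the start, on either strand, CCAAT was found in 7 of the 10 (Acacb, Acly, Acss2, Elovl5, Fads1, Pnpla3 and Thrsp), and in 34.0% of all 33469 promoters. It lay 71 bases before the start in Acly, 72 in Acacb and 73 in Acss2. The E-box CACGTG was found in 1 of the 10, Elovl5, and in 5.59% of all promoters, and the sterol regulatory element TCACNCCAC in 0 of the 10 and in 0.974% of all. These matches are descriptions of letters, not of binding.

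The enzymes that lengthen and desaturate the new fatty acids were lower as well. Scd, stearoyl-CoA desaturase (chromosome 1, 264159966 to 264173061), which makes oleic acid, had 59.1, 245 and 711 CPM in the liraglutide+PYY3-36 libraries and 2218, 2417 and 4242 CPM in Lean, a log2 fold change of -3.41 ± 0.73 (adjusted p = 0.00354). The treated livers spread widely for Scd but none reached the Lean range. The deposited Scd value was not a whole number in 91.7% of the 12 libraries, because reads that map to several places or genes were divided between them. Fads1 and Fads2, the Δ5 and Δ6 desaturases of polyunsaturated fatty acids, are neighbours on chromosome 1 (Rnor_6.0, 226234034 to 226249118 and 225906582 to 226152568). Fads1 had 146, 169 and 217 CPM against 422, 565 and 1019 CPM (log2 fold change -1.88 ± 0.32, adjusted p = 0.00024) and Fads2 150.5, 187 and 239 CPM against 376, 502 and 1177 CPM (log2 fold change -1.78 ± 0.37, adjusted p = 0.00219). Both desaturases were lower in every treated liver than in any Lean liver.

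Elovl6, which lengthens palmitic acid, was sparse, with 2 to 8 reads per library after liraglutide+PYY3-36 and 27 to 112 in Lean (log2 fold change -3.46 ± 0.54, adjusted p = 8.55e-05). Elovl5, the elongase of polyunsaturated fatty acids, overlapped between the groups (log2 fold change -1.06 ± 0.28, adjusted p = 0.0209). Its adjusted p was 0.0953 without Lean replicate 2, and it was 0.0629, 0.0553 and 0.0515 without liraglutide+PYY3-36 replicates 5, 6 and 4. Me1, malic enzyme, which yields NADPH, also overlapped (log2 fold change -1.27 ± 0.33, adjusted p = 0.0164) and was not called without Lean replicate 1 (adjusted p = 0.0566) or Lean replicate 2 (adjusted p = 0.0592). Thrsp, the Spot 14 protein that marks lipogenic tissue, had 275, 390.2 and 808 CPM against 1036, 1411 and 2134 CPM (log2 fold change -1.72 ± 0.35, adjusted p = 0.00195). Per transcript length, Thrsp and Scd stood at the top of the 13 in Lean with means of 1209 and 612 RPKM, and Elovl6 at the bottom with 0.938 RPKM.

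**Figure D1:**
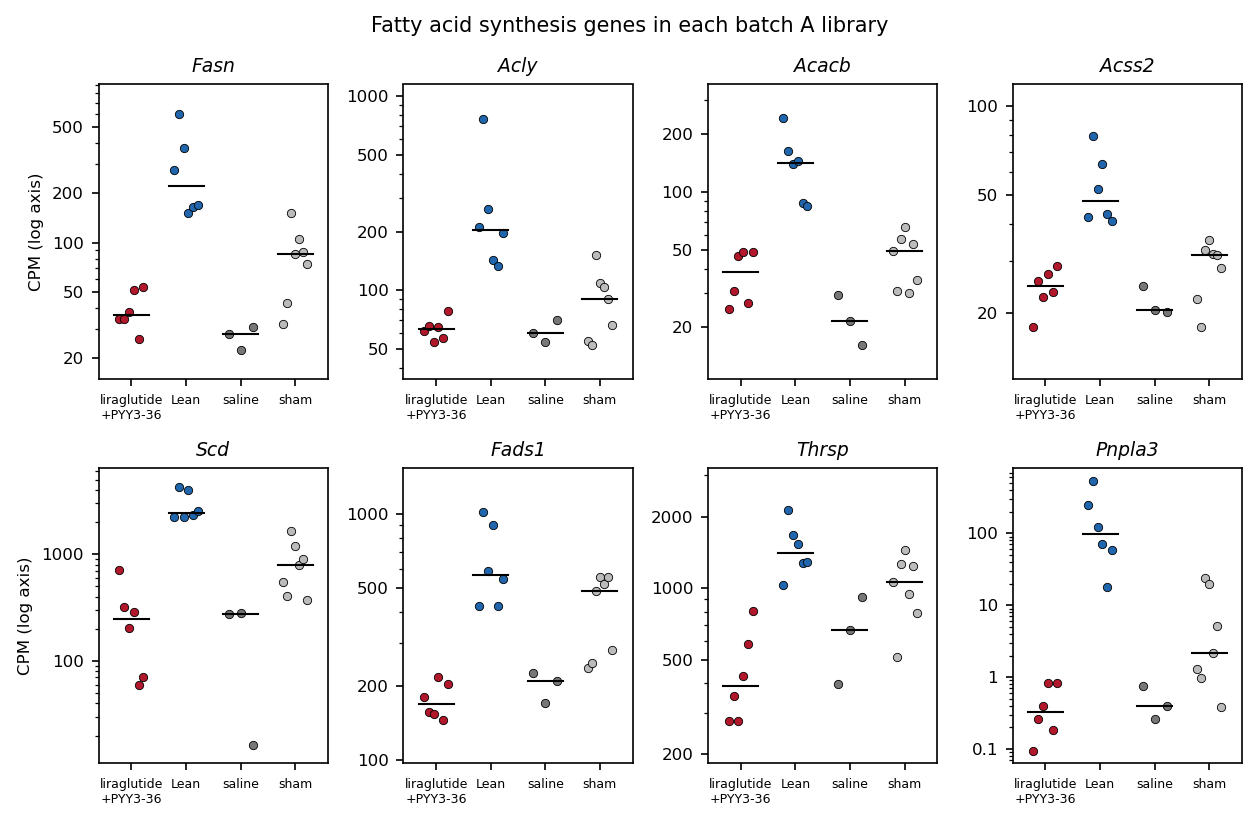
CPM (log axis) of 8 fatty acid synthesis genes in each batch A library of liraglutide+PYY3-36 (n = 6), Lean (n = 6), saline (n = 3) and sham (n = 7), with 1 point per library and a line at the group median. For all 8 genes the 6 liraglutide+PYY3-36 points lie below the 6 Lean points, for Fasn at 26.3 to 54.1 CPM against 150.4 to 601 CPM.

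By edgeR's log2 fold change, the largest difference of all named genes was in Pnpla3, a lipase and acyltransferase of lipid droplets whose gene is a known SREBP1c target. It had 0.0951, 0.327 and 0.833 CPM after liraglutide+PYY3-36, from 2 to 22 reads per library, and 17.8, 96.9 and 532 CPM in Lean, from 368 to 11715 reads. The lowest Lean library was far above the highest treated library, and the log2 fold change was -8.63 ± 1.25 (adjusted p = 3.87e-05). DESeq2, whose prior shrinks fold changes, gave a log2 fold change of -1.56 for the same gene, below that of Fabp5 in size, and called it too. Pnpla5, a relative that lies beside it on chromosome 7 (Rnor_6.0, 124988524 to 124999137, with Pnpla3 at 125034760 to 125056165), had 0.149, 0.757 and 0.894 CPM against 44.1, 69.8 and 144 CPM (log2 fold change -7.12 ± 1.06, adjusted p = 5.11e-05). Neither gene rose above 1 CPM in any treated liver.

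The other 3 members of the list did not pass the test, and among them are both transcription factors. Srebf1, which encodes SREBP1, had 126, 169 and 199.7 CPM against 175, 329 and 462 CPM, a log2 fold change of -0.94 ± 0.32 with an adjusted p of 0.084. It was called when the 12 libraries alone were fitted (adjusted p = 0.0329) and by DESeq2 (adjusted p = 0.0474). Mlxipl, which encodes ChREBP, had 136, 231 and 366 CPM against 85.9, 218 and 343 CPM, with a log2 fold change of 0.09 ± 0.33 (adjusted p = 0.909). Gpam, the first enzyme of glycerolipid synthesis, had 40.9, 79.1 and 138 CPM against 26.9, 69.8 and 149 CPM (log2 fold change 0.12 ± 0.32, adjusted p = 0.883). The groups overlapped for all of these. Within Lean the 13 lower genes varied together in their extremes, since Lean replicate 2 was the highest Lean library for 11 of the 13 and Lean replicate 5 the lowest for 7. Without Lean replicate 2, 11 of the 13 genes still passed, and with all 69 libraries and a batch term 4 did, namely Acly, Acacb, Fasn and Pnpla3.

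Genes that feed carbon and NADPH to fatty acid synthesis were lower in the same livers. Of 22 genes of glycolysis, fructose use, glycogen and the pentose phosphate pathway, 7 were lower and 0 higher (31.8% called, beside 4.46% of all genes tested). The median log2 fold change was -0.51. For all 7 the groups did not overlap, beside 1.63% of all genes with every treated library below every Lean one. With all 69 libraries and a batch term 4 of the 7 passed. Pgd, an NADPH-producing enzyme of the pentose phosphate pathway, had 27.0, 30.4 and 32.1 CPM against 55.1, 68.1 and 122 CPM (log2 fold change -1.34 ± 0.185, adjusted p = 1.82e-05). The treated livers lay within a narrow range while the Lean livers spread more widely. Taldo1 and Tkt of the non-oxidative branch had smaller differences, with log2 fold changes of -0.54 ± 0.10 (adjusted p = 0.000839) and -0.76 ± 0.21 (adjusted p = 0.0271). Rpia, ribose-5-phosphate isomerase of the same branch, was lower too (log2 fold change -0.75 ± 0.13, adjusted p = 0.000215). Tkt was not called when any 1 of liraglutide+PYY3-36 replicates 2, 3, 5 and 6 or Lean replicates 2 and 4 was left out, with adjusted p between 0.0515 and 0.0744.

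Slc2a5, the fructose transporter GLUT5, had 5.52, 6.87 and 10.7 CPM after liraglutide+PYY3-36 and 20.4, 30.3 and 39.3 CPM in Lean (log2 fold change -2.09 ± 0.33, adjusted p = 9.88e-05). Ppp1r3g, a glycogen-targeting subunit of protein phosphatase 1 that rises on feeding, had 0.984, 2.85 and 5.93 CPM against 6.73, 18.0 and 55.6 CPM (log2 fold change -2.94 ± 0.57, adjusted p = 0.00135). Pklr, liver pyruvate kinase, was lower (log2 fold change -1.25 ± 0.31, adjusted p = 0.0112), though not without Lean replicate 2 (adjusted p = 0.0559). Khk, ketohexokinase, had 291, 336 and 356 CPM against 359, 413 and 528 CPM and missed the threshold (log2 fold change -0.35 ± 0.12, adjusted p = 0.0737). Of 17 genes of gluconeogenesis and insulin signalling 1 passed (5.88%, beside 4.46% of all genes tested), Slc2a2, which was lower. Pck1, the cytosolic PEPCK of gluconeogenesis, did not pass, at -0.24 ± 0.16 on the log2 scale (adjusted p = 0.447).

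Cholesterol synthesis was lower in part. Of its 20 genes, 6 were lower and 0 higher (30% called, beside 4.46% of all genes tested), 19 of the 20 differences were negative, and their median log2 fold change was -0.72. Pmvk, phosphomevalonate kinase, had 11.1, 13.5 and 16.8 CPM against 24.0, 37.2 and 57.9 CPM without overlap (log2 fold change -1.48 ± 0.20, adjusted p = 1.82e-05). Fdps, farnesyl diphosphate synthase, had 54.7, 59.6 and 113 CPM against 134, 191 and 397 CPM, also without overlap (log2 fold change -1.57 ± 0.37, adjusted p = 0.0083). Ebp and Tm7sf2, enzymes of the late, sterol part of the route, had log2 fold changes of -0.80 ± 0.13 (adjusted p = 0.000155) and -1.17 ± 0.29 (adjusted p = 0.0129). Fdft1 and Nsdhl completed the 6 with adjusted p of 0.0232 and 0.0244, and each missed the threshold when 1 of several libraries was left out (adjusted p up to 0.0753 and 0.0999). With all 69 libraries and a batch term 1 of the 6 genes passed.

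The genes of sterol regulation showed fewer calls. Of 9 tested, 2 were lower (22.2%, beside 4.46% of all genes called), Insig1 among them, and the count was 0 without Lean replicate 2 and 1 without any 1 of 7 other libraries. Insig1, which holds SREBP in the endoplasmic reticulum and is itself an SREBP target, had 22.2, 48.4 and 68.3 CPM against 58.0, 104 and 438 CPM (log2 fold change -1.84 ± 0.45, adjusted p = 0.0114). That difference leaned on 1 library, since without Lean replicate 2 the log2 fold change was -1.24 and the adjusted p 0.0938.

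**Figure D2:**
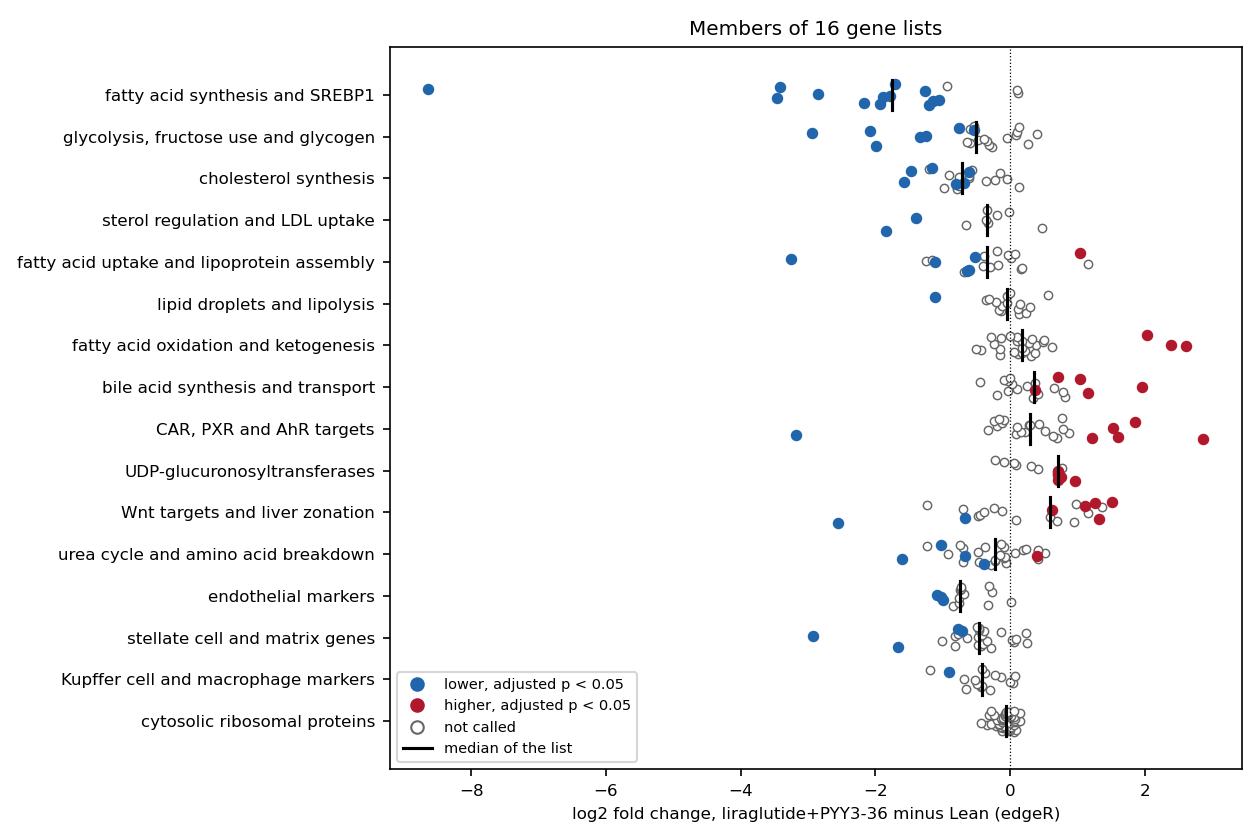
Log2 fold change (liraglutide+PYY3-36 minus Lean, edgeR) of each tested member of 16 gene lists, with filled points at an adjusted p under 0.05 and a bar at the median of each list. Filled points lie left of 0 in the synthesis lists, where fatty acid synthesis has a median of -1.75 with 13 of 16 genes lower, and right of 0 in the bile acid and glucuronosyltransferase lists, while the 51 ribosomal protein genes have 0 filled points.

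Of 20 fatty acid carrier and lipoprotein genes tested, 5 were lower and 1 was higher (30% called, beside 4.46% of all genes tested). The median log2 fold change was -0.34, and with all 69 libraries and a batch term 2 of the 5 passed. Of the list's 4 fatty acid binding protein genes, Fabp1 and Fabp5 were lower, while Fabp2 (log2 fold change -1.26 ± 0.42, adjusted p = 0.0768) and Fabp4 (-1.16 ± 0.44, adjusted p = 0.126) did not pass. Fabp1, the abundant liver form, had 1814, 1991 and 2389 CPM against 3313, 4072 and 6818 CPM (log2 fold change -1.11 ± 0.21, adjusted p = 0.000921). Fabp5 had 2.83, 4.21 and 5.98 CPM against 23.5, 35.6 and 87.0 CPM (log2 fold change -3.26 ± 0.44, adjusted p = 1.8e-05). Fabp12, which lies near Fabp5 on chromosome 2, had 21.4, 24.7 and 25.6 CPM against 39.4, 45.6 and 54.2 CPM (log2 fold change -0.93 ± 0.13, adjusted p = 2.84e-05). Fabp1, Fabp5 and Fabp12 did not overlap between the groups. Apoa4 and Lipc, an apolipoprotein of triglyceride-rich particles and the hepatic lipase gene, had log2 fold changes of -0.61 ± 0.14 (adjusted p = 0.00567) and -0.52 ± 0.13 (adjusted p = 0.0128), and Lipc was not called without Lean replicate 2 (adjusted p = 0.0585). Apoa2 was called with a log2 fold change of -0.64 ± 0.17 (adjusted p = 0.0214), and not without any 1 of 4 libraries (adjusted p up to 0.0761). The higher gene, Slc27a5, is described with the bile acid genes.

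Lipid droplet genes other than Pnpla3 and Pnpla5 differed little. Of 16 tested, 1 was lower (6.25%, beside 4.46% of all genes called), with a median log2 fold change of -0.045. Plin3, a droplet coat protein, had 7.98, 10.1 and 15.96 CPM against 15.7, 25.8 and 31.1 CPM (log2 fold change -1.12 ± 0.21, adjusted p = 0.00114). Plin2, the main coat protein of fatty liver, overlapped, with 28.1, 61.1 and 107 CPM against 49.3, 63.7 and 134 CPM (log2 fold change -0.32 ± 0.29, adjusted p = 0.589). Cidec, which enlarges droplets in steatosis, had 55.6, 70.2 and 80.8 CPM against 52.6, 79.8 and 96.1 CPM (log2 fold change -0.16 ± 0.13, adjusted p = 0.518). Nceh1, a neutral cholesterol ester hydrolase, was outside the list and higher, with 13.03, 20.9 and 23.9 CPM against 4.41, 7.39 and 11.7 CPM and no overlap (log2 fold change 1.33 ± 0.20, adjusted p = 5.37e-05).

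On the side of fatty acid breakdown, 3 of 27 genes were higher and 0 lower, against 1.76% higher among all genes tested, and the list's median was 0.17 on the log2 scale. The count was 5 without liraglutide+PYY3-36 replicate 4 or Lean replicate 4. None of the 3 encodes an enzyme of mitochondrial β-oxidation. Vnn1, pantetheinase (chromosome 1, 22614832 to 22625134), a known PPARα target, had 20.4, 31.5 and 49.8 CPM after liraglutide+PYY3-36 and 5.46, 7.68 and 10.9 CPM in Lean, with every treated liver above every Lean liver (log2 fold change 2.02 ± 0.31, adjusted p = 8.55e-05). Cyp4a2, a fatty acid ω-hydroxylase, had 71.0, 347 and 693 CPM against 35.6, 52.1 and 84.0 CPM (log2 fold change 2.60 ± 0.49, adjusted p = 0.00091). Liraglutide+PYY3-36 replicate 4, at 71.0 CPM, was within the Lean range and replicate 5, at 86.0 CPM, just above it. The other 4 lay from 283 CPM upward. Cyp4a8, from the same cluster on chromosome 5, had 2.74, 18.6 and 53.2 CPM against 1.16, 2.38 and 8.77 CPM (log2 fold change 2.39 ± 0.58, adjusted p = 0.011). Reads of both were partly shared with similar genes, as the values were not whole in 91.7% and 83.3% of the 12 libraries. Cyp4a1 of the same family missed the threshold (log2 fold change 0.62 ± 0.20, adjusted p = 0.0758).

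The mitochondrial enzymes of the list did not pass. Cpt1a, which carries fatty acids into mitochondria, had 191, 256 and 364 CPM against 266, 416 and 486 CPM, a log2 fold change of -0.51 ± 0.20 (adjusted p = 0.148). The groups overlapped. Fgf21, a fasting hormone of the liver, did not pass, at 0.48 ± 0.45 on the log2 scale (adjusted p = 0.614).

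Bile acid genes were called in 1 direction only. Of 20 tested, 5 were higher after liraglutide+PYY3-36 and 0 lower (25% called, beside 4.46% of all genes tested), with a median log2 fold change of 0.35. The higher count was 3 without liraglutide+PYY3-36 replicate 2, without replicate 5 and without Lean replicate 2, and 2 with all 69 libraries and a batch term. Cyp7b1, the oxysterol 7α-hydroxylase of the alternative bile acid pathway (chromosome 2, 102701903 to 102871257), had 15.8, 27.2 and 48.9 CPM against 5.48, 7.32 and 10.2 CPM (log2 fold change 1.96 ± 0.47, adjusted p = 0.01). Slc27a5, bile acyl-CoA synthetase, which activates bile acids for conjugation, had 1016, 1120.0 and 1198 CPM against 332, 573 and 654 CPM (log2 fold change 1.04 ± 0.19, adjusted p = 0.000538). The groups did not overlap for either gene. Baat, the next step of conjugation, had 1101, 1174 and 1275 CPM against 779.6, 902 and 1090.0 CPM (log2 fold change 0.37 ± 0.10, adjusted p = 0.0262) and missed the threshold without any 1 of 6 libraries (adjusted p up to 0.079). Abcg5, a sterol exporter, and Slco1b2, an uptake carrier, completed the 5, with log2 fold changes of 1.16 ± 0.31 (adjusted p = 0.0239) and 0.72 ± 0.17 (adjusted p = 0.00995). Abcg5 missed the threshold without any 1 of liraglutide+PYY3-36 replicates 2 and 5 and Lean replicates 1 and 2 (adjusted p 0.0578 to 0.0716), and Slco1b2 without liraglutide+PYY3-36 replicate 1 (adjusted p = 0.057). Cyp7a1, the rate-limiting enzyme of the classical pathway, had 40.7, 129 and 253 CPM against 48.4, 72.2 and 138 CPM and did not pass (log2 fold change 0.64 ± 0.54, adjusted p = 0.562).

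Drug-clearance genes were higher in part, beginning with a receptor that controls them. Nr1i3, the gene of CAR, had 107, 178 and 214 CPM after liraglutide+PYY3-36 and 21.5, 45.9 and 75.5 CPM in Lean, without overlap (log2 fold change 1.85 ± 0.36, adjusted p = 0.00117). Pcp4l1, which lies beside it on chromosome 13 (Rnor_6.0, 89542377 to 89565920, with Nr1i3 at 89585072 to 89591278), was also higher without overlap (log2 fold change 2.09 ± 0.49, adjusted p = 0.0083). Of the 25 CAR, PXR and AhR genes tested, 5 were higher and 1 lower (24% called, beside 4.46% of all genes tested), with a median of 0.29. The count of 5 was 3 when any 1 of liraglutide+PYY3-36 replicates 1, 2 and 3 or Lean replicate 6 was left out, and 2 with all 69 libraries and a batch term. Cyp3a2, a main drug-oxidising enzyme of male rats, had 2021, 3326 and 5606 CPM against 756, 957 and 2533 CPM (log2 fold change 1.53 ± 0.275, adjusted p = 0.000506), with Lean replicate 5 the only Lean liver within the treated range. Abcb1b, a P-glycoprotein drug exporter, had 8.09, 29.6 and 89.8 CPM against 2.11, 4.33 and 9.54 CPM (log2 fold change 2.86 ± 0.59, adjusted p = 0.00231). Every treated liver but the lowest was above all Lean livers for Abcb1b. Adam22, which lies on the same chromosome 4 near Abcb1b, had 0.999, 2.77 and 3.58 CPM against 0.158, 0.43 and 0.727 CPM (log2 fold change 2.59 ± 0.44, adjusted p = 0.000224).

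Aldh1a1, retinal dehydrogenase, was called at an adjusted p of 0.0375 (log2 fold change 1.21) and missed the threshold without any 1 of 7 libraries (adjusted p up to 0.13). Cyp2b1, the classical CAR target of the rat, did not pass, with 7.60, 10.6 and 25.2 CPM against 4.41, 7.38 and 13.3 CPM (log2 fold change 0.87 ± 0.51, adjusted p = 0.372). Cyp1a1, the AhR target, was the lower gene of the list, from 2 to 25 reads per library against 10 to 118 (log2 fold change -3.18 ± 0.87, adjusted p = 0.0266), and it was not called by DESeq2 or limma or without any 1 of 6 libraries (adjusted p up to 0.0719). Of 15 UDP-glucuronosyltransferase genes tested, 8 were higher (53.3%, beside 4.46% of all genes called), all from the Ugt1a cluster, whose members share their last exons and divide their reads, so that the 8 are not separate observations. Ugt1a1, the bilirubin-conjugating form, had 94.2, 119 and 209 CPM against 40.7, 66.3 and 97.3 CPM (log2 fold change 0.97 ± 0.20, adjusted p = 0.00199). When the 12 libraries alone were fitted its adjusted p was 0.056.

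**Figure D3:**
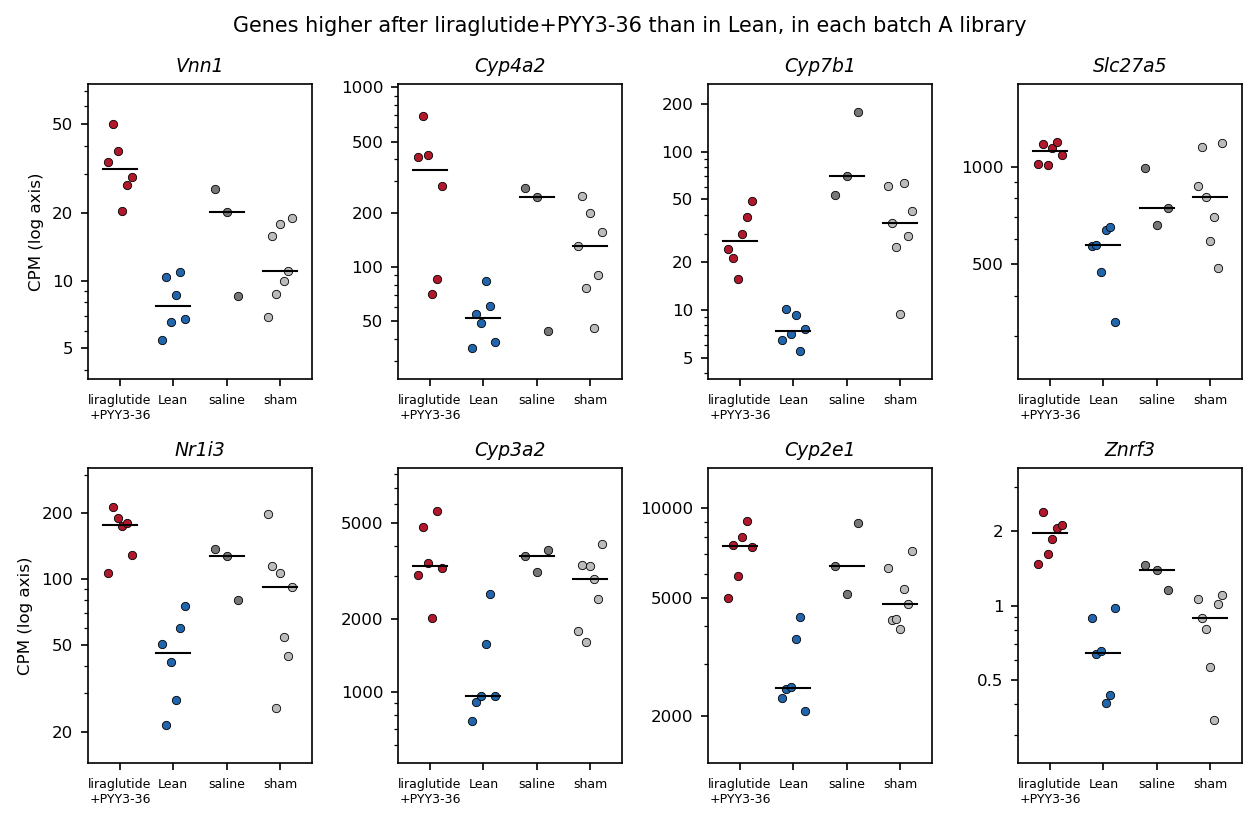
CPM (log axis) of 8 genes in each batch A library of liraglutide+PYY3-36 (n = 6), Lean (n = 6), saline (n = 3) and sham (n = 7), with 1 point per library and a line at the group median. The liraglutide+PYY3-36 and Lean points do not overlap for Vnn1, Cyp7b1, Slc27a5, Nr1i3, Cyp2e1 and Znrf3, and they do for Cyp4a2 and Cyp3a2.

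Genes that mark the zones of the liver lobule differed in both directions. Wnt signals keep the hepatocytes around the central vein in their state, and Rnf43 and Znrf3, membrane E3 ligases, are Wnt targets that limit it. Of 21 Wnt and zonation genes tested, 5 were higher and 2 lower (33.3% called, beside 4.46% of all genes tested), with a median log2 fold change of 0.59. The 5 were 3 without liraglutide+PYY3-36 replicate 5 or without Lean replicate 2. With all 69 libraries and a batch term, 1 of the 5, Cyp2e1, and 1 of the 2, Aldh1b1, passed. Rnf43 had 8.94, 11.2 and 12.95 CPM against 3.49, 4.79 and 7.78 CPM (log2 fold change 1.10 ± 0.25, adjusted p = 0.00601). Znrf3 had 1.47, 1.96 and 2.39 CPM against 0.405, 0.644 and 0.978 CPM (log2 fold change 1.51 ± 0.30, adjusted p = 0.0015). Cyp2e1, the ethanol-oxidising enzyme of the central zone, had 4978, 7445 and 9050.0 CPM against 2078, 2480.0 and 4291 CPM (log2 fold change 1.31 ± 0.20, adjusted p = 5.32e-05). These 3 genes did not overlap between the groups.

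Tbx3, a transcription factor of the same zone, was higher (log2 fold change 1.25 ± 0.32, adjusted p = 0.0167), though not without liraglutide+PYY3-36 replicate 5 (adjusted p = 0.0629) or Lean replicate 2 (adjusted p = 0.0559). Notum, a secreted Wnt inhibitor, was called at an adjusted p of 0.0464 and missed the threshold without any 1 of 9 libraries (adjusted p up to 0.114). Axin2, a general Wnt target, had 5.89, 7.13 and 9.57 CPM against 2.76, 4.39 and 5.72 CPM without overlap, and an adjusted p of 0.0582 (log2 fold change 0.70 ± 0.22). Glul, glutamine synthetase, the defining enzyme of the cells next to the central vein, had 319, 418 and 519.7 CPM against 126, 239.8 and 475 CPM and did not pass (log2 fold change 0.59 ± 0.30, adjusted p = 0.27). The lower genes were Aldh1b1, a mitochondrial aldehyde dehydrogenase, with 5.51, 9.89 and 14.4 CPM against 13.2, 55.8 and 85.2 CPM (log2 fold change -2.56 ± 0.47, adjusted p = 0.000764), and Gls2, the liver glutaminase of the portal zone (log2 fold change -0.67 ± 0.15, adjusted p = 0.00664). Only Lean replicate 5, at 13.2 CPM, reached the treated range for Aldh1b1.

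Among 29 urea cycle and amino acid genes, 4 were lower and 1 was higher (17.2% called, beside 4.46% of all genes tested), with a median log2 fold change of -0.23. The 4 were 7 without liraglutide+PYY3-36 replicate 4 and 1 with all 69 libraries and a batch term. Bhmt, which remethylates homocysteine with betaine, had 407, 764 and 1038 CPM against 1613, 2239 and 2684 CPM (log2 fold change -1.60 ± 0.31, adjusted p = 0.00117), and its reads were partly shared with another place in all 12 libraries. Sdsl, a serine dehydratase relative, had 8.84, 11.2 and 14.2 CPM against 21.2, 22.7 and 25.7 CPM (log2 fold change -1.03 ± 0.15, adjusted p = 5.11e-05). Neither gene overlapped. Glud1, glutamate dehydrogenase, was the higher member (log2 fold change 0.39 ± 0.11, adjusted p = 0.0298) and missed the threshold without any 1 of 5 libraries (adjusted p up to 0.0953). Some lists share members. Gls2 was counted with the zonation genes too, and Cyp3a2 and Cyp4a2, described above, count again in the next list. Of 24 sex- and growth hormone-dependent genes, 3 were higher and 2 lower (20.8% called). The lower ones were 1 without any 1 of 9 libraries and 0 when the 12 libraries alone were fitted. Among them Cyp2c11, the main P450 of male rats, had 1173, 1770.0 and 2747 CPM against 1608, 3505 and 4795 CPM (log2 fold change -0.88 ± 0.21, adjusted p = 0.00831), with overlap.

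Markers of endothelial, Kupffer, stellate and T, NK and B cells were mostly below their Lean level, as were 8 of the 11 hepatocyte markers. Bile duct markers were split, with 5 above and 5 below, and 7 of 9 blood markers were above. RNA of bulk liver cannot tell fewer cells of a type from less RNA per cell. Of 14 endothelial markers, 3 were lower (21.4%, beside 4.46% of all genes called), and 13 of the 14 differences were negative (median log2 fold change -0.74). Lyve1, a hyaluronan receptor of sinusoidal endothelium, had 18.2, 27.7 and 33.5 CPM against 39.4, 53.9 and 67.2 CPM without overlap (log2 fold change -1.03 ± 0.24, adjusted p = 0.00649). Oit3 and Fcgr2b, also of sinusoidal endothelium, had log2 fold changes of -1.09 ± 0.29 (adjusted p = 0.0209) and -0.996 ± 0.30 (adjusted p = 0.0458), and both missed the threshold without any 1 of several libraries (adjusted p up to 0.0655 and 0.116), so that the count of 3 was 1 without liraglutide+PYY3-36 replicate 2, 5 or 6 or Lean replicate 4. Mrc1, the mannose receptor of sinusoidal and Kupffer cells, had 14.9, 22.1 and 29.0 CPM against 28.2, 44.4 and 48.0 CPM (log2 fold change -0.91 ± 0.23, adjusted p = 0.015) and was the 1 of 16 Kupffer cell and macrophage markers that passed (6.25%, beside 4.46% of all genes). The endothelial markers summed to 180.5 to 386 CPM against 313 to 457 CPM and the Kupffer markers to 298 to 532 CPM against 393 to 747 CPM, so that both sums overlapped. The other 11 endothelial and 15 Kupffer cell markers did not pass. The part of cell composition in the hepatocyte results was not tested.

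Of 26 stellate cell and matrix genes, 4 were lower and 0 higher (15.4% called, beside 4.46% of all genes tested), and the summed level overlapped, at 1469 to 2032 CPM against 1284 to 2324 CPM. Col1a1, the collagen I chain, had 0.588, 1.64 and 5.66 CPM against 5.20, 7.38 and 8.59 CPM (log2 fold change -1.66 ± 0.41, adjusted p = 0.0118). Only liraglutide+PYY3-36 replicate 1, at 5.66 CPM, reached the Lean range. Lum, lumican, was near the limit after liraglutide+PYY3-36, at 0 to 0.186 CPM against 0.263 to 1.18 CPM in Lean (log2 fold change -2.93 ± 0.74, adjusted p = 0.0131). The count of 4 was 9 without liraglutide+PYY3-36 replicate 1 and 2 without replicate 2 or without Lean replicate 4, and it was 0 with all 69 libraries and a batch term. Of 17 T, NK and B cell markers 1 was lower (5.88%, beside 4.46% of all genes called), Gzmb, which missed the threshold without liraglutide+PYY3-36 replicate 2, 5 or 6 (adjusted p 0.0515 to 0.0618).

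Immune and acute phase lists had shares of called genes between 0% and 8%, beside 4.46% of all genes. Il1a, the alarmin interleukin 1α, had 3.99, 6.17 and 10.3 CPM against 16.8, 24.5 and 33.1 CPM without overlap (log2 fold change -1.86 ± 0.29, adjusted p = 8.59e-05), and with Ccl24 was 1 of the 2 lower among 25 chemokine and cytokine genes. C6, a complement component made by hepatocytes, had 83.5, 130.4 and 187 CPM against 316, 372 and 479.5 CPM, also without overlap (log2 fold change -1.55 ± 0.22, adjusted p = 2.59e-05), and was 1 of 2 lower among 35 complement and coagulation genes, a count that was 1 without any 1 of 7 libraries. Lbp, the lipopolysaccharide binding protein, was the 1 of 22 acute phase genes that was higher (log2 fold change 0.92 ± 0.21, adjusted p = 0.00663). Of 31 interferon-stimulated genes, 18 iron genes and 18 clock genes, 0 passed, and Hamp, hepcidin, did not pass, at 0.02 ± 0.55 on the log2 scale (adjusted p = 0.992).

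Of 25 heat shock and immediate early genes, 1 was higher and 2 lower (12% called, beside 4.46% of all genes tested), and with all 69 libraries and a batch term 0 passed. Jun had 95.7, 212 and 312 CPM after liraglutide+PYY3-36 and 32.4, 51.3 and 139 CPM in Lean (log2 fold change 1.71 ± 0.44, adjusted p = 0.0149). Fosb had 0 to 3 reads against 3 to 42 (log2 fold change -4.08 ± 0.87, adjusted p = 0.00335), and Fos had 0.476, 0.752 and 1.53 CPM against 1.34, 3.68 and 6.26 CPM (log2 fold change -1.99 ± 0.54, adjusted p = 0.0244). Jun and Fos overlapped between the groups by 1 library or more, and Fos was not called by limma or without Lean replicate 2 (adjusted p = 0.0747) or liraglutide+PYY3-36 replicate 2 or 5 (adjusted p = 0.0632 and 0.0551).

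Several of the largest differences lay outside these pathways. Igfn1, an immunoglobulin and fibronectin domain protein, had 0.228, 1.34 and 8.58 CPM against 16.7, 53.9 and 157 CPM (log2 fold change -4.64 ± 0.76, adjusted p = 0.000157). Sdr16c6, a short-chain dehydrogenase, had 0 to 0.708 CPM against 4.03 to 22.6 CPM (log2 fold change -5.50 ± 0.81, adjusted p = 3.98e-05). Kcnj15, a potassium channel, had 2.01, 3.29 and 8.16 CPM against 9.03, 32.9 and 67.9 CPM (log2 fold change -3.19 ± 0.61, adjusted p = 0.00117). None of these overlapped. Noct, the rhythmic gene nocturnin, was lower as well (log2 fold change -3.54 ± 0.68, adjusted p = 0.00117), with 4 Lean livers from 37.9 to 76.6 CPM and Lean replicates 1 and 4, at 3.26 and 1.72 CPM, within the treated range of 0.709 to 5.97 CPM. On the higher side, the unnamed locus LOC102551259 (chromosome 1, Rnor_6.0, 189373594 to 189376206) had 55.7, 81.5 and 124 CPM against 4.76, 12.4 and 17.8 CPM (log2 fold change 2.86 ± 0.35, adjusted p = 4.28e-06), Nudt11, a diphosphoinositol polyphosphate phosphatase, had 3.10, 6.46 and 11.4 CPM against 0.136, 1.23 and 1.87 CPM (log2 fold change 2.52 ± 0.43, adjusted p = 0.000214), and Dnajc12, a co-chaperone, had 21.9, 29.8 and 44.7 CPM against 8.84, 16.1 and 17.1 CPM (log2 fold change 1.15 ± 0.17, adjusted p = 3.87e-05). These 3 did not overlap either.

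Calls in the remaining lists were often lost when 1 library was left out, and their shares stand beside 4.46% called among all genes tested. Of 34 nuclear-encoded genes of the respiratory chain, 3 were lower (8.82%), Ndufs3, Sdhb and Cox7b. Negative differences were 33 of the 34, beside 8039 of 16552 among all genes, with a median log2 fold change of -0.23. The 3 were 1 without liraglutide+PYY3-36 replicate 2 or 3 or without Lean replicate 1, and 0 with all 69 libraries and a batch term. Of 31 cell cycle genes 2 were higher (6.45%, near the 4.46% of all genes), Mdm2 and Ccng1, both known p53 targets, and 25 of the 31 differences were negative. The 2 calls were 0 without liraglutide+PYY3-36 replicate 3 or without Lean replicate 2, 3 or 4, and 1 without liraglutide+PYY3-36 replicate 1 or 2 or Lean replicate 1. Of 28 glutathione and NRF2 genes, Gclm and Txnrd1 were higher and Gstp1 and Sod1 lower (14.3% called). The higher ones were 0 without liraglutide+PYY3-36 replicate 2 or 5 or Lean replicate 1 and 1 without liraglutide+PYY3-36 replicate 1 or Lean replicate 2 or 3, and the lower ones were 1 without any 1 of 9 libraries. The lists of MHC genes (28 tested), endoplasmic reticulum chaperones (22) and amino acid synthesis and ATF4 targets (22) had 1 lower gene each, namely B2m, P4hb and Aldh1l2. Each of these calls was lost when 1 library was left out, for B2m Lean replicate 1, for P4hb any of 7 and for Aldh1l2 any of 6. Of 23 retinoid genes, 1 was higher (Aldh1a1) and 1 lower (Pnpla3), both described above (8.7% called). Among 51 genes of cytosolic ribosomal proteins 0 passed, with a median of -0.06, and 0 passed among the markers of neutrophils (5 tested), bile duct cells (10), blood (9), fat tissue (5) and pancreas and gut (2).

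The same treated libraries were then set beside the saline and sham libraries of batch A. Since all these comparisons share the 6 liraglutide+PYY3-36 libraries, only the values of each are given. Against saline (n = 3), 0 of 16552 genes passed in edgeR, with 1027 at an unadjusted p under 0.05 (6.20%), while DESeq2 called 3 and limma 1. For Fasn the saline livers had 22.4, 28.1 and 30.9 CPM, and the log2 fold change of liraglutide+PYY3-36 was 0.56 against saline (adjusted p = 0.928) and -1.05 against sham (adjusted p = 0.358). For Pnpla3 the saline livers had 0.261, 0.399 and 0.757 CPM and the sham livers from 0.383 to 24.1 CPM, with a median of 2.17 CPM, so that 2 sham livers, replicates 3 and 4, were within the Lean range and the other 8 livers below it. For Scd the saline livers had 16.5, 274 and 280 CPM and the sham livers 369 to 1660.0 CPM. The Scd values of all 10 lay below the lowest Lean liver, at 2218 CPM.

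Against sham (n = 7), 16 genes passed (0.0967%), 9 higher (0.0544%) and 7 lower (0.0423%) after liraglutide+PYY3-36. With a 2-fold difference as well, 3 were higher (0.0181%) and 1 lower (0.00604%). The count of 16 rested on single libraries. It was 282 without sham replicate 1, 42 without sham replicate 2, 34 without liraglutide+PYY3-36 replicate 5, between 2 and 9 without liraglutide+PYY3-36 replicates 2, 3, 4 and 6 or sham replicates 3 to 6, and 16 without the other 2. Nceh1 differed by 1.17 on the log2 scale (adjusted p = 0.0055) and Vnn1 by 1.37 (adjusted p = 0.039), with sham livers at 6.01 to 12.1 CPM and at 6.87 to 19.1 CPM. Both were higher in every treated liver than in any sham liver. Dnajc12 (log2 fold change 0.82, adjusted p = 0.0282), Smad3, a mediator of TGF-β signals (0.74, adjusted p = 0.033), and Ccdc6 (0.65, adjusted p = 0.0327) were higher too. Smad3 did not pass against Lean (log2 fold change 0.31 ± 0.16, adjusted p = 0.282). On the lower side were C6 (log2 fold change -1.10, adjusted p = 0.027), Fabp12 (-0.73, adjusted p = 0.0132), Kng1, kininogen (-0.70, adjusted p = 0.039), Rpia (-0.61, adjusted p = 0.0327) and Rmdn1 (-0.48, adjusted p = 0.033). Against Lean, Kng1 (log2 fold change -0.32 ± 0.15, adjusted p = 0.24) and Rmdn1 (-0.23 ± 0.10, adjusted p = 0.204) did not pass.

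**Figure D4:**
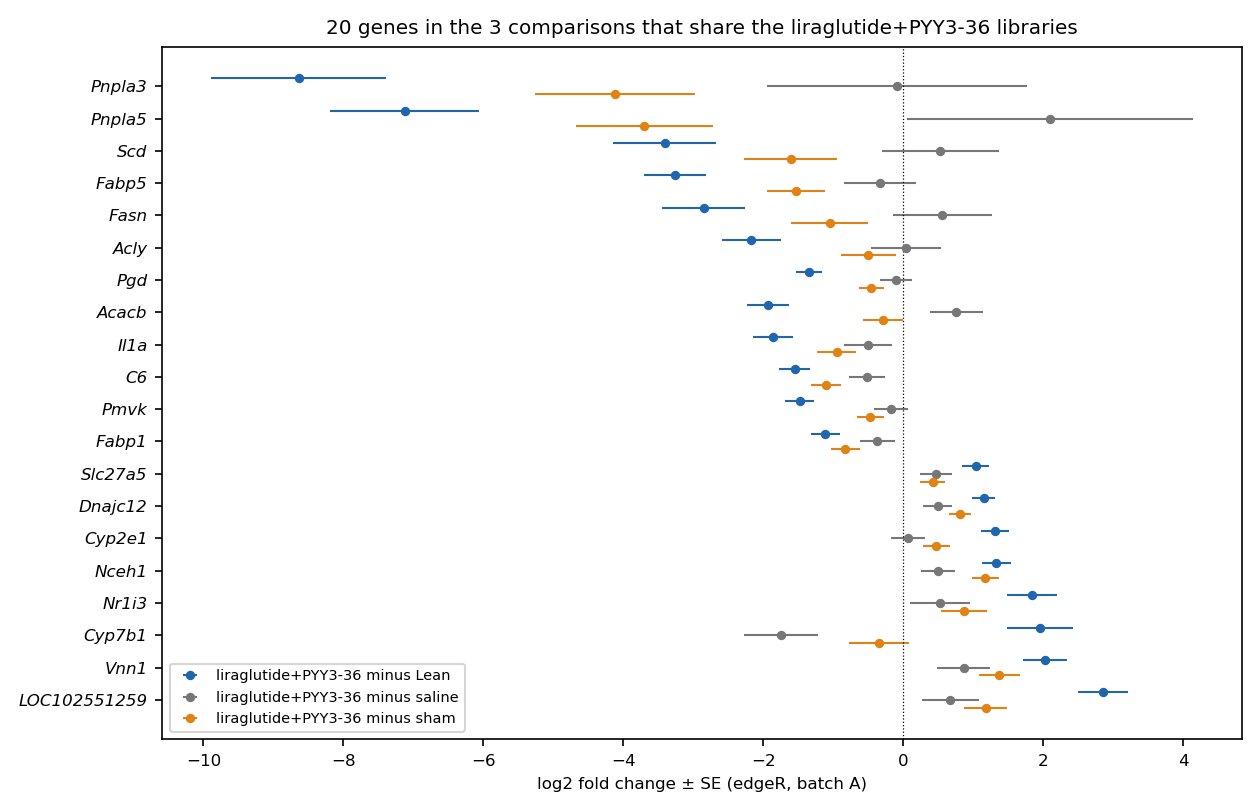
Log2 fold change ± SE (edgeR, batch A) of 20 genes for liraglutide+PYY3-36 minus Lean, minus saline and minus sham, comparisons that share the 6 liraglutide+PYY3-36 libraries. All 20 genes pass against Lean, from Pnpla3 at -8.63 to LOC102551259 at 2.86, 0 pass against saline, and Cyp7b1 is at 1.96 against Lean, -1.75 against saline and -0.34 against sham.

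Cyp7b1 had its lowest levels in Lean. The saline livers had 53.5, 70.4 and 177 CPM and the sham livers a median of 35.3 CPM, against 27.2 CPM after liraglutide+PYY3-36 and 7.32 CPM in Lean. The log2 fold change was -1.75 against saline (adjusted p = 0.584) and -0.34 against sham (adjusted p = 0.734), neither past the threshold. Jun had 50.1, 55.1 and 55.8 CPM in the saline livers, beside a Lean median of 51.3 CPM and a treated median of 212 CPM, and its log2 fold change was 1.95 against saline (adjusted p = 0.584).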

How the data were processed

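The deposited table held estimated counts per gene for 69 rat liver libraries. The authors demultiplexed with bcl2fastq 2.20.0.422, trimmed with cutadapt 2.5, aligned to Rnor_6.0 with STAR 2.7.2b and counted with featureCounts 1.6.4 on the reverse strand, dividing reads that map to several places or overlap several genes. For this reason 15.9% of the values were not whole, and similar genes share reads. Values were rounded to whole numbers here. Groups, replicate numbers and batch were read from the sample labels, which do not say what a batch is. For Lean nothing says that each library is a separate animal, so p-values measure the spread between libraries.

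The main fit (edgeR 4.0.16 on R 4.3.3, quasi-likelihood, robust, TMM) took all 41 batch A libraries, RYGB rats and the group labelled BWM included, with a mean per group and 35 residual degrees of freedom. The filter on low counts left 16552 of 38513 genes (43%). A gene was called at a Benjamini-Hochberg adjusted p under 0.05. SE belongs to the log2 fold change, and CPM is TMM-normalized. Total counts in batch A ranged from 18037046 to 27559144. Any 2 libraries within liraglutide+PYY3-36 and within Lean differed by more than counting noise. The alternatives were another normalization, no filter, DESeq2 1.42.0, limma 3.58.1 (voom), other sets of libraries, unrounded counts, no robust estimation, the replicate number as a block and leaving out each library. Promoters came from RefSeq (GRCr8), and 29389 genes matched the RefSeq gene table.

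Genes were named by a rule: the 12 highest and 12 lowest called log2 fold changes at 2-fold or more and an average log2 CPM of at least 1 (at most 2 unnamed loci each), for each list the 4 genes smallest in p, the 5 largest changes each way against sham, the receptor genes, and counter-examples. Some genes under this rule are not printed. The compared groups, the 40 lists and the named members were chosen with earlier results of these data known. Some genes are not reported here.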

Additional observations from a re-analysis of the deposited data

Results flagged for a closer look

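The values of the 111 named genes were screened in liraglutide+PYY3-36, Lean and sham for a single library far from the rest of its group by Dixon's gap test. Of 333 group values 10 stood out, and chance alone gives about 1 in 20. Saline, with 3 libraries, was not screened.

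Among the liraglutide+PYY3-36 libraries, Ebp had 119.4 CPM in replicate 4 against 80.93 to 92.2 CPM in the other 5. Replicate 2 had 21.36 CPM of Fabp12 against 24.07 to 25.64 CPM, and 569.5 CPM of Hsd3b5, a steroid dehydrogenase, against 357.4 to 410.4 CPM. Hsd3b5 was called higher than in Lean, and not without replicate 2 (edgeR, adjusted p = 0.0609). Adam22 had 0.9987 CPM in replicate 1 against 2.279 to 3.579 CPM. Ttr, transthyretin, had 7312 CPM in replicate 3 against 9146 to 9979 CPM, and its call as lower than Lean was lost without that replicate (adjusted p = 0.0673) and without Lean replicate 1 or 2.

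Among the Lean libraries, Aldh1b1 had 13.24 CPM in replicate 5 against 43.39 to 85.17 CPM. Mrc1 had 28.24 CPM in replicate 6 against 42.77 to 48.04 CPM, and Nudt11 had 0.1361 CPM in replicate 2 against 1.1 to 1.872 CPM. Each of these genes was called with and without that library. Among the sham libraries, Apoa2 had 3334 CPM in replicate 4 against 1459 to 2038 CPM, and Nudt11 had 0.8395 CPM in replicate 5 against 2.557 to 4.836 CPM.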

How the results depend on the processing

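Of the 111 named genes, none past the threshold, in the main result or in an alternative, turned its direction. Among those that did not pass, Cpt1a and Rmdn1 changed sign with all 69 libraries and a batch term (log2 fold change 0.05 and 0.28), Mlxipl in that fit (-0.25) and without single libraries, and Gpam and Hamp without single libraries. The count of 738 (292 higher, 446 lower; 112 and 176 past 2-fold) was 752 with DESeq2 size factors, 747 without rounding, 744 without robust estimation, 575 without the filter (549 of them shared) and 752 with limma. DESeq2 gave 950, with 29 higher and 59 lower past 2-fold because its prior shrinks fold changes, 3 against saline and 128 against sham, and limma gave 1 and 35. With the 12 libraries alone the count was 411 (154 higher, 257 lower, 105 lower past 2-fold), and with the 6 liraglutide+PYY3-36 and 7 sham libraries alone it was 9 against sham. With all 69 libraries and a batch term it was 188 (63 higher, 125 lower; 40 and 89 past 2-fold), with 1 against saline and 0 against sham; this fit lets in the other batch's liraglutide+PYY3-36 libraries, and the cause of the lower count was not tested. Calls of named genes lost were 54 in that fit, 18 with the 12 libraries alone, 4 without the filter (Aldh1a1, Cyp1a1, Notum and Fcgr2b), 3 with limma (Cyp1a1, Fos and Popdc2) and 1 with DESeq2 (Cyp1a1), while Srebf1, Cyp4a1 and Axin2 were called by DESeq2 and Srebf1 with the 12 libraries alone. Leaving out single libraries gave 480 to 744 genes, 175 to 289 higher (79 to 115 past 2-fold) and 305 to 487 lower (133 to 209). The lowest count was without liraglutide+PYY3-36 replicate 2. The range was 0 to 0 against saline and 2 to 282 against sham.

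The replicate block (the replicate number as a block over the 6 same-numbered pairs) gave 271 genes, 240 of them shared with the main result, 96 higher and 175 lower (62 and 89 past 2-fold), and 0 against sham. Of 109 named genes 29 lost their call under the block, among them Rpia, Pklr, Ppp1r3g, Plin3, Cyp4a2, Abcb1b, Noct and Nudt11. Whether the numbers pair the libraries cannot be told from 6 pairs with correlations of both signs. Deviations of same-numbered libraries correlated at -0.291 to 0.319, 4 of 6 above 0.1. Of the liraglutide+PYY3-36 libraries, 3 of 6 correlated best with their own number. The labels give no shared litter, batch or day for a number.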
